A study of Mus musculus with 63 samples.

Results

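The cardiac myosin heavy and light chains were taken as 6 genes of the 19220 in the deposited count table, chosen by name and described in 63 heart libraries of 8 mouse strains. They are the heavy chains Myh6, Myh7 and Myh7b, the light chains Myl2 and Myl3, and the kinase Mylk3. All 6 had enough counts to be tested. The strains are called WSB, PWK, NZO, NOD, Cast, B6, AJ and 129 in the labels and are the inbred founders of the Diversity Outbred mouse population, of which Cast, PWK and WSB are wild-derived. There were 7 libraries of Cast and 8 of every other strain, and a library is named here by its strain and number (WSB_1 is replicate 1 of WSB). All mice were fed the high-fat, high-sugar diet with 45% fat, so no comparison of diets is possible here, and the labels used here give no age, sex or genotype beyond the strain. The labels do not state that the libraries of a strain came from separate mice, so p-values measure the spread between these libraries, which may be technical.

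Myosin is the motor of the thick filament. Each motor has a pair of heavy chains that split ATP and pull on actin, and each heavy chain carries an essential and a regulatory light chain at its neck. In the adult mouse ventricle the fast α heavy chain, Myh6, is the main form, while the slow β heavy chain, Myh7, prevails before birth and in slow skeletal muscle, is low in the adult and is raised in hypothyroid or overloaded rodent hearts. Myl2 is the regulatory light chain of the ventricle, Myl3 its essential light chain, and Mylk3 is the heart's own kinase for Myl2. Myh7b is a further, ancient heavy chain gene of heart and slow muscle.

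The 3 heavy chain genes also carry a microRNA each, and these are shown because they are transcribed with the genes described here. By RefSeq (GRCm38.p6) miR-208a-3p lies at chr14:54949072-54949093 on the minus strand inside Myh6, miR-208b-3p at chr14:54975710-54975731 on the minus strand inside Myh7, and miR-499-5p at chr2:155622893-155622913 on the plus strand inside Myh7b. Each lies on its host's strand and overlaps no exon in GENCODE M21, and in the transcript with the longest coding sequence they sit in introns 29, 31 and 19 of Myh6, Myh7 and Myh7b. The mature sequences are given 5′ to 3′ with the seed, bases 2 to 8, in capitals.
miR-208a-3p: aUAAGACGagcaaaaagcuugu
miR-208b-3p: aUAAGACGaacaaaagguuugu
miR-499-5p: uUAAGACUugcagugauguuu
The seed of miR-208a-3p and miR-208b-3p is the same, and that of miR-499-5p differs from it at 1 base. Over their whole length the pair of miR-208 sequences differ at 3 of 22 bases. The libraries were made from polyadenylated RNA, so the counts of the host genes are given below and no level of a microRNA is.

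Myh6 (ENSMUSG00000040752, chr14:54941981-54966927) and Myh7 (ENSMUSG00000053093, chr14:54970688-54994634) are neighbours on the minus strand, 3.76 kb apart in the deposited GRCm38 annotation. Their coding sequences, 5814 and 5805 bases without the stop codon in GENCODE M21, are alike enough that 687 of the 5715 windows of 100 bases in Myh6 are found unchanged in Myh7, and 23.8% of its windows of 50 bases. The longest stretch they share has 245 bases and is shown because a read from it names neither gene. It runs from exon 30 into exon 31 of Myh6 (chr14:54948327-54948725) and from exon 32 into exon 33 of Myh7 (chr14:54974947-54975347), with an intron inside each span, and encodes part of the rod.
Myh6 and Myh7, shared coding stretch: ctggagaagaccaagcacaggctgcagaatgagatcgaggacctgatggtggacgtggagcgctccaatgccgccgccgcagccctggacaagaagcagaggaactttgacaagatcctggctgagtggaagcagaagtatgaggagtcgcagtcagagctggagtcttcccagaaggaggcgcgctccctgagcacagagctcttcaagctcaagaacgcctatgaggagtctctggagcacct
The deposited counts of Myh6 and Myh7 were not whole numbers in any of the 63 libraries within a tolerance of 1e-06, while those of Myh7b, Myl2, Myl3 and Mylk3 were whole in all 63. Some reads of Myh6 and Myh7 were thus counted in part, and the counts do not say with which gene they were shared. Myh6 had 495132 to 1597648 counts a library and Myh7 had 1957 to 246855, and the part of such counting in the lowest Myh7 values was not tested.

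The libraries held 21.8 M to 42.9 M counts each, with a median of 30.4 M, and the 6 genes took 2.72 to 4.67% of them. Levels are given as CPM, counts scaled to a library of 1e+06, after TMM scaling, which evens out library composition. One library, WSB_1, stood apart: its median gene lay 0.497 log2 units from the WSB mean, against 0.0527 to 0.174 in the other 62 libraries. Its summed level of 8 heart muscle markers was 20646 CPM, against a median of 43281 CPM over all 8 WSB libraries, so results in WSB that it moves are given with and without it. The heart muscle markers, led by the calcium pump Atp2a2, were high in the other libraries. The 9 skeletal muscle fibre markers in the table summed to 101 CPM in Cast_1 and to 6.97 to 32.0 CPM in the other 62.

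Per kilobase of exon, the 6 genes covered more than 2 orders of level. Averaged over strain means, Myh6 stood at 4656 CPM per kb, Myl2 at 2342, Myl3 at 1231, Mylk3 at 125, Myh7 at 71.5 and Myh7b at 14.9 CPM per kb over the union of each gene's exons. With the longest transcript as the length, Myl2 at 5137 CPM per kb and Myh6 at 5123 CPM per kb changed places, and the other 4 kept their order. Over the exon union Myh7 averaged 309.5 CPM per kb in Cast, where it stood above Mylk3 at 119. In 129 it averaged 18.6 CPM per kb, below Myh7b, and in WSB 14.4, below Myh7b at 16.1 (13.5 and 13.7 without WSB_1). With the longest transcript as the length Myh7 stood above Myh7b in both, at 25.7 against 21.5 CPM per kb in 129 and at 19.9 against 17.4 in WSB.

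All 6 genes differed among the 8 strains by the edgeR quasi-likelihood test, with Benjamini-Hochberg adjustment over 16425 genes and a threshold of 0.05. That alone sets them apart little, because 90.3% of all genes tested did so. Strain means at least 1 log2 unit apart were seen in 1 of the 6, Myh7, against 38.4% of all genes. The highest strain mean was 21.5 times the lowest for Myh7, 1.71 times for Myh7b, 1.51 times for Mylk3, 1.36 times for Myh6, 1.28 times for Myl3 and 1.23 times for Myl2. Without WSB_1 it was 22.9 times for Myh7, 1.38 times for Mylk3 and 1.31 times for Myl2, and the same for the other 3. On the log2 scale the strain means spanned 4.07 units for Myh7 and 0.31 to 0.79 units for the other 5, with a median of 0.78 units over all genes. Among the 2003 genes with a mean log2 CPM of 6 or more, where the median span was 0.47 units, Myh6 at 0.45 units stood at the 46.9th percentile, Myl3 at the 29.2nd and Myl2 at the 21.1st. There Myh7 stood at the 99.7th, Myh7b at the 77.8th and Mylk3 at the 70.7th. The Mylk3 span was 0.69 units with WSB_1 and 0.46 without it, and that of Myl2 0.31 and 0.39.

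**Figure D1:**
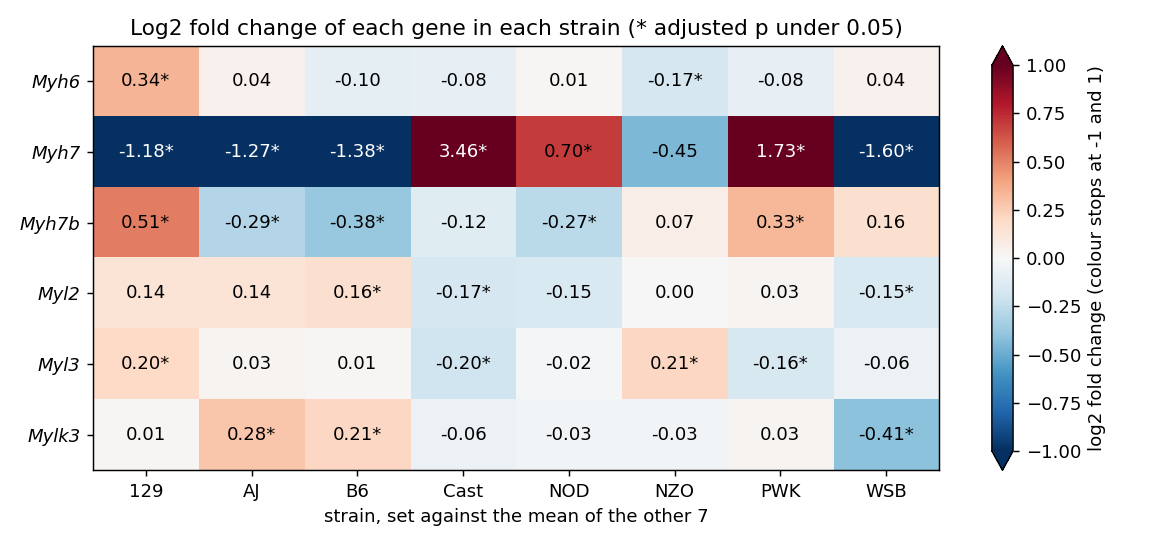
Log2 fold change of each of the 6 genes (rows) in each strain (columns) against the unweighted mean of the other 7 strains, with colours that stop at -1 and 1 and an asterisk where the adjusted p is under 0.05. Myh7 runs between -1.60 in WSB and 3.46 in Cast, while no other gene goes beyond 0.51 in either direction.

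Each strain was set against the unweighted log2 mean of the other 7, which gave 48 tests over the 6 genes. These tests share libraries, since every strain is also part of the mean that the others are set against. Of these 24 passed, 11 higher and 13 lower. In 129, 3 of 6 genes were higher and 1 lower, beside 16.8% of all genes higher and 14.1% lower (30.9% in all). In AJ 1 was higher and 2 lower, beside 21.1% and 18.1% of all genes (39.2%). In B6 2 were higher and 2 lower, beside 17.5% and 14.3% (31.8%). These 3 strains had the fewest calls over all genes along with NOD, so the counts in them stand beside a low share of all genes. In Cast 1 was higher and 2 lower, beside 30.9% and 29.3% (60.2%). In NOD 1 was higher and 1 lower, beside 19.8% and 13.9% (33.6%). In NZO 1 was higher and 1 lower, beside 22.5% and 18.6% (41.0%). In PWK 2 were higher and 1 lower, beside 27.4% and 26.8% (54.2%), and in WSB none was higher and 3 were lower, beside 25.6% and 19.8% (45.4%). Without WSB_1, 31 of the 48 tests passed, while the share of all genes that passed ran from 37.0 to 64.4% per strain. Between pairs of strains 68 of 168 tests passed, and the share of all genes that passed ran from 21.3 to 57.0% per pair with a median of 43.2%. Without WSB_1 it was 98 of 168, beside a median of 45.0% of all genes.

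The pairs of strains that differed in most of the 6 genes included 129. There were 5 of 6 genes called between 129 and Cast, where 54.0% of all genes were, and between 129 and NOD, where 26.4% were. There were 4 between 129 and WSB (34.6% of all genes) and between AJ and Cast (56.7%). There were 3 between 129 and PWK (46.1%), AJ and PWK (51.9%), AJ and WSB (42.7%), Cast and B6 (53.4%), B6 and WSB (37.2%), NOD and WSB (37.9%), and NZO and WSB (43.8%). None of the 6 was called between AJ and B6 (30.0%) or AJ and NZO (28.8%), and 1 was called between Cast and NOD (56.2%). The other 14 pairs had 2 genes called. For these the share of all genes was 57.0% between Cast and NZO, 53.9% between Cast and PWK, 53.9% between Cast and WSB, 52.7% between PWK and NZO, 51.8% between PWK and WSB, 50.3% between PWK and NOD and 48.1% between PWK and B6. It was 31.8% between 129 and NZO, 29.1% between NZO and B6, 28.1% between 129 and AJ, 26.3% between NOD and NZO, 25.1% between NOD and B6, 23.5% between AJ and NOD and 21.3% between 129 and B6. In the pairs with Cast or PWK 46.1% or more of all genes were called, while the 6 genes had 1 to 5 calls there.

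These counts moved without WSB_1, in the pairs with WSB and in others. Without it 5 genes were called between 129 and WSB, where 35.4% of all genes were, between PWK and WSB (53.3%) and between NZO and WSB (46.1%). There were 3 each between AJ and WSB (44.0%), B6 and WSB (37.6%), NOD and WSB (39.2%), and Cast and WSB (56.1%). In the 21 pairs without WSB the counts then ran from 1, between AJ and B6, to 5. AJ and NZO differed in 4 genes where none had been called with WSB_1. The share of all genes in each of these 21 pairs without WSB_1 is not given here. Over all 28 pairs the median share of all genes was 43.2% with WSB_1 and 45.0% without it. Whether the 6 genes gained more calls than all genes did in these pairs was not tested.

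Myh7, the slow β heavy chain, was highest in Cast, then in PWK and in NOD. Its lowest, median and highest level over the 7 Cast libraries was 898, 1430.1 and 8076 CPM. Over the 8 PWK libraries these were 322, 557 and 2406 CPM. In NOD they were 374, 472 and 796 CPM. Every library of Cast and of NOD, and every one of PWK, lay above every library of 129, AJ, B6 and WSB. In NZO the lowest, median and highest Myh7 levels were 132, 179.5 and 498 CPM. They were 125, 158 and 189 CPM in 129, 123, 156 and 180.0 CPM in AJ, and 81.7, 146 and 212 CPM in B6. WSB had 93.3, 103 and 206 CPM, and 93.3, 102 and 206 CPM without WSB_1. The 129 and AJ libraries lay close together, while NZO had 3 libraries well above its other 5.

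**Figure D2:**
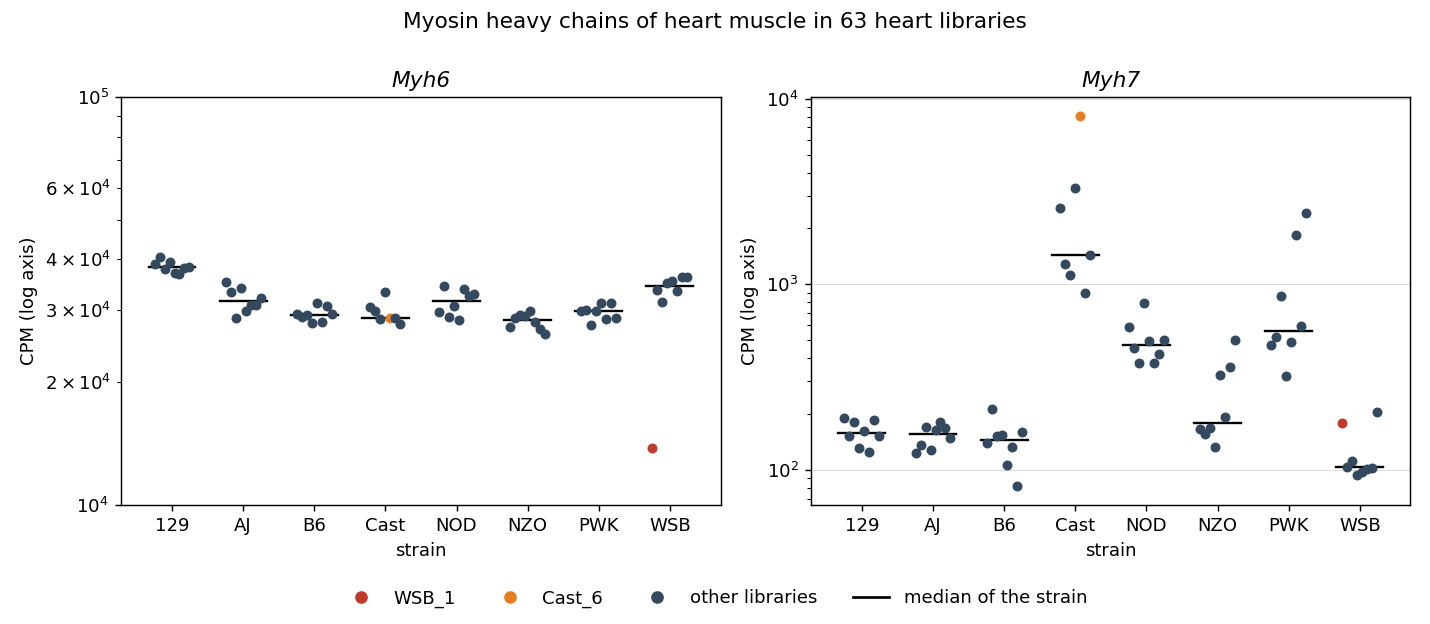
Level of Myh6 (left) and Myh7 (right) in CPM on log axes in each of the 63 libraries by strain, with a line at the strain median and WSB_1 and Cast_6 in colour. Myh6 stays between 26274 and 40592 CPM outside WSB_1, which is at 13806, while Myh7 runs between 81.7 and 8076 CPM and is spread widely within Cast, PWK and NZO.

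Against the mean of the other 7 strains, Myh7 was higher in Cast by 3.46 ± 0.20 log2 units (SE, edgeR adjusted p = 3.09e-22) and in PWK by 1.73 ± 0.22 (adjusted p = 6.41e-10). NOD was higher by 0.70 ± 0.23 on the log2 scale (adjusted p = 0.0167). The NOD mean of 500.3 CPM lay below the mean of the other strains' means, 633 CPM, which the high Cast values carry. Myh7 was lower in WSB by -1.60 ± 0.29, in B6 by -1.38 ± 0.28, in AJ by -1.27 ± 0.28 and in 129 by -1.18 ± 0.28 log2 units, with adjusted p-values of 5.33e-06 to 0.000519. In NZO the difference was -0.45 ± 0.26 and did not pass (adjusted p = 0.162). Without WSB_1 the WSB difference was -1.69 (adjusted p = 8.92e-06).

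Single libraries carried part of the Myh7 differences. Cast_6 held 8076 CPM, Cast_5 3288 and Cast_1 2565, against 898 to 1430.1 CPM in the other 4 Cast libraries, and without these 3 the Cast difference was 2.28 log2 units (adjusted p = 1.16e-12). Without Cast_6 alone it was 2.86. In PWK, PWK_9 at 2406 and PWK_6 at 1831 CPM stood above the other 6, which had 322 to 859.5 CPM, and without PWK_9 the PWK difference was 1.36 log2 units. In NOD the call was lost without NOD_4, which held 796 CPM, at 0.57 log2 units and an adjusted p of 0.0765. In NZO the call was gained without NZO_8, which held 498 CPM, at -0.67 log2 units and an adjusted p of 0.0454.

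The order of the strains by Myh7 was Cast, PWK, NOD, NZO, 129, AJ, B6 and WSB. Cast exceeded PWK by 1.51 ± 0.34 log2 units (adjusted p = 0.000174), PWK exceeded NOD by 0.90 ± 0.33 (adjusted p = 0.0189) and NOD exceeded NZO by 1.00 ± 0.33 (adjusted p = 0.0182). NZO exceeded WSB by 1.01 ± 0.33 (adjusted p = 0.0116), but its differences from 129, AJ and B6, 0.64, 0.72 and 0.81 log2 units, did not pass (adjusted p 0.0579 to 0.137). The 4 strains 129, AJ, B6 and WSB could not be ordered, since none of the pairs among them passed and they were at most 0.36 log2 units apart. In all, 19 of the 28 pairs passed for Myh7, and the same 19 passed without WSB_1.

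A ratio within a library does not depend on how libraries are scaled, so Myh7 was also taken as a share of the counts of Myh6 and Myh7 together. The share was 7.78 ± 6.61% (SD, n = 7) in Cast, with a median of 4.90% and 21.9% in Cast_6. It was 3.06 ± 2.47% in PWK, 1.58 ± 0.468% in NOD and 0.887 ± 0.494% in NZO (SD, n = 8 each). In B6 it was 0.485 ± 0.140%, in AJ 0.479 ± 0.0947%, in WSB 0.453 ± 0.348% and in 129 0.415 ± 0.0634%. WSB_1 had 1.28%, and the other 7 WSB libraries averaged 0.335 ± 0.106%. Myh6 was thus the larger of the pair in every library, Cast_6 included.

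**Figure D3:**
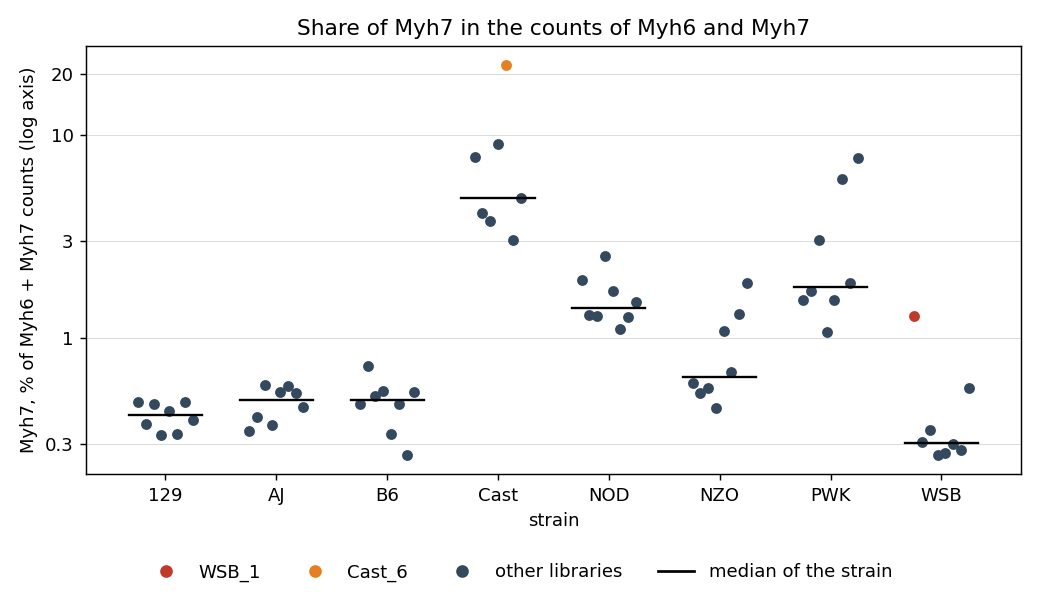
Myh7 as a percentage of the counts of Myh6 and Myh7 together (log axis) in each library by strain, with a line at the strain median and WSB_1 and Cast_6 in colour. All 7 Cast libraries lie at 3.02% or above, and Cast_6 reaches 21.9%, while 129, AJ and B6 stay under 0.73%.

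The log2 ratio of Myh7 to Myh6 differed among strains (permutation F test, n = 63, p = 1e-05, which no set of 1e+05 resamples can go below). By exact two-sided permutation tests adjusted over 28 pairs, 21 pairs differed. Cast exceeded PWK by 1.44 log2 units (exact permutation test, adjusted p = 0.0292), and PWK exceeded NOD by 0.68 units, which did not pass here (exact permutation test, adjusted p = 0.152) although the Myh7 level of this pair did. NZO exceeded 129, AJ and B6 by 0.95, 0.75 and 0.76 log2 units, and these passed for the ratio (exact permutation tests, adjusted p = 0.00116, 0.0184 and 0.0327) where the Myh7 levels had not. The 6 pairs among 129, AJ, B6 and WSB did not pass. Without WSB_1, 23 pairs differed, since AJ and B6 then exceeded WSB by 0.54 and 0.53 log2 units (exact permutation tests, adjusted p = 0.0178 and 0.0407).

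Myh6, the fast α heavy chain and the most abundant of the 6 genes, varied much less. Its lowest, median and highest level was 36782, 38236 and 40592 CPM in 129. No other strain reached these values: AJ had 28776, 31534 and 35174 CPM, NOD 28401, 31598 and 34447 CPM, and WSB 31417, 35013 and 36291 CPM without WSB_1. The medians of Cast, PWK, B6 and NZO lay between 28400.1 and 29905 CPM, and no single library of these 4 exceeded 33269 CPM. In 129 Myh6 was higher than in the other 7 strains by 0.34 ± 0.06 log2 units (edgeR, adjusted p = 1.64e-05), and 129 exceeded each of the other 7 strains in its pairwise test. In NZO it was lower by -0.17 ± 0.07 (adjusted p = 0.0414), a call that did not hold without any 1 of 6 NZO libraries, NZO_1, NZO_2, NZO_4, NZO_6, NZO_7 and NZO_8.

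WSB_1 held 13806 CPM of Myh6, and this 1 library decided much of the order of the other strains. With it, 7 of 28 pairs passed, all of them with 129. Without it, 18 did, the within-strain SD of Myh6 was 0.08 log2 units, against 0.18 with it, and the NZO difference of -0.18 had an adjusted p of 5.26e-06. Without WSB_1, Myh6 was also lower in B6 by -0.12, in Cast by -0.10 and in PWK by -0.10 log2 units, and higher in WSB by 0.15 log2 units (edgeR, adjusted p 0.000193 to 0.0111). With it these 4 differences did not pass.

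In Cast Myh7 averaged 2667 CPM, against 323 CPM over the other strains, while Myh6 averaged 29669 CPM, against 31552 CPM over the other strains. Without WSB_1 Myh6 was called lower in Cast and PWK, the strains with the most Myh7, by -0.10 log2 units each (edgeR, adjusted p = 0.0111 and 0.00785). WSB, with the least Myh7, then had Myh6 higher by 0.15 (adjusted p = 0.000193). B6, next lowest in Myh7, had Myh6 at 29338 CPM, and only NZO had a lower mean. No test over the 8 strain means was made. Between libraries of one strain, the deviations of the pair from their strain means had r = -0.20 and rho = -0.28 over 63 libraries (permutation within strains, adjusted p over 15 gene pairs 0.0948 and 0.0623), with r = -0.25 when the 2 libraries farthest from the median in Myh6 were left out. The strain means there still included those 2 libraries. Without WSB_1, and with the WSB mean taken anew, r was -0.19 (permutation within strains, adjusted p = 0.283). Within single strains it was then above 0 in 3 and below 0 in 5, at -0.90 to 0.30.

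Mhrt, a long noncoding RNA of the heart, overlaps Myh7 on the opposite strand (chr14:54968678-54974349). Strand use in counting is not given in the sources used here, its counts were not whole in any library, and reads of Myh7 and Mhrt may not have been told apart. Mhrt was highest in WSB, at 25.7 to 93.4 CPM with WSB_1 and 25.7 to 31.2 CPM without it, by 0.97 ± 0.11 log2 units with it (edgeR, adjusted p = 1.41e-10) and 0.59 without it (adjusted p = 2.97e-09). It was lower in NZO by -0.57 ± 0.13, in Cast by -0.54 ± 0.14 and in PWK by -0.34 ± 0.13 log2 units (adjusted p 0.000301 to 0.0205). WSB thus had the lowest Myh7 and the highest Mhrt of the 8 strains. Cast_6, with the most Myh7 of all libraries, had the least Mhrt of the Cast libraries at 8.02 CPM. Other values went otherwise. NZO had little Mhrt without a high Myh7. NOD, where Myh7 was called higher, averaged 23.5 CPM of Mhrt (0.25 log2 units, edgeR adjusted p = 0.0988, and 0.31 without WSB_1, adjusted p = 0.000626). Within WSB, WSB_9 and WSB_1 had the most Myh7, at 206 and 179 CPM, and the most Mhrt, at 31.2 and 93.4 CPM.

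Markers of other cell types moved with strain too. In Cast, where Myh7 was highest, 29.3% of all genes were lower and 30.9% higher. Beside these shares, all 7 fibroblast markers were lower (summed level 468 to 888 CPM in Cast, with Cast_6 lowest, against 876 to 1890.4 CPM in the other strains). Of the red cell genes 4 of 5 were lower, and of the atrial markers 3 of 7 were lower and none higher. Of the 6 tested skeletal muscle markers 5 were higher and 1 lower. All 9 skeletal markers in the table summed to medians of 16.8 CPM in Cast and 18.5 CPM in PWK, against medians of 8.67 to 14.4 CPM in the other 6 strains. This sum is led by Tnnt1. In PWK 2 of the 6 tested skeletal markers were higher and 3 lower, beside 27.4% and 26.8% of all genes. Their median log2 fold change in PWK was -1.04. Tnni1, the slow skeletal troponin I, had medians of 0.949 CPM in Cast and 1.11 CPM in PWK, against 0.0782 to 0.342 CPM in the others, and Tnnt1, the slow skeletal troponin T, 12.6 CPM in Cast and 15.7 CPM in PWK, against 5.09 to 9.23 CPM. The fast skeletal heavy chains Myh1 and Myh2 reached 31.4 and 26.9 CPM in Cast_1 but at most 1.74 and 1.21 CPM in any other library, and were listed at 0 in 21 and 26 libraries. The tested skeletal markers Mylpf, Tnni2 and Atp2a1 were also highest in Cast_1, at 4.14, 4.18 and 17.9 CPM, against at most 0.492, 1.34 and 6.01 CPM elsewhere. The skeletal calls in Cast include Cast_1, and how far they rest on it was not tested. In Cast_6, where Myh7 was 8076 CPM, Myh1 stood at 0.0981 CPM and Myh2 at 0. The part of these cell types in the Myh7 differences was not tested beyond these values, and in bulk tissue fewer cells of a type and less RNA per cell cannot be told apart.

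Myh7b (ENSMUSG00000074652, chr2:155611212-155634307, plus strand), the host of miR-499, was the least abundant of the 6. It had a lowest, median and highest level of 121, 133 and 143 CPM in 129, 97.2, 121 and 142 CPM in PWK, and 60.3, 78.1 and 88.3 CPM in B6. Every 129 library lay above every library of AJ, B6, NOD and Cast. Cast had 38.2, 103 and 118 CPM, with Cast_1 lowest, and WSB had 80.4, 93.4 and 220.0 CPM, with WSB_1 highest and the other 7 at 101 or below. NZO had 83.5, 101 and 124 CPM. AJ had 64.7 to 94.7 CPM, and NOD had the narrowest range, at 77.4 to 88.7 CPM.

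Myh7b was higher in 129 by 0.51 ± 0.10 log2 units (edgeR, adjusted p = 7.71e-05) and in PWK by 0.33 ± 0.11 (adjusted p = 0.00658). It was lower in B6 by -0.38 ± 0.11 (adjusted p = 0.00575), in AJ by -0.29 ± 0.11 (adjusted p = 0.0329) and in NOD by -0.27 ± 0.11 (adjusted p = 0.0496). The NOD call did not hold when any 1 of 42 libraries was left out, and the AJ call did not hold without AJ_3, AJ_5, AJ_7 or AJ_8. For Myh7b 129 did not differ from PWK beyond the spread (0.16 log2 units, adjusted p = 0.390), and the differences among NOD, AJ and B6 did not pass either. The pairs with WSB turned on WSB_1. With it, 129 exceeded WSB by 0.31 log2 units (adjusted p = 0.0908) and WSB was called above AJ, B6 and NOD. Without it, 129 exceeded WSB by 0.54 (adjusted p = 0.000221), PWK exceeded WSB by 0.39 (adjusted p = 0.00520), and WSB was no longer called above those 3. The WSB difference was 0.16 with WSB_1 and -0.08 without it, and passed in neither case. PWK was the one strain with both Myh7 and Myh7b called higher, and AJ and B6 had both called lower, while 129 and NOD had 1 in each direction.

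**Figure D4:**
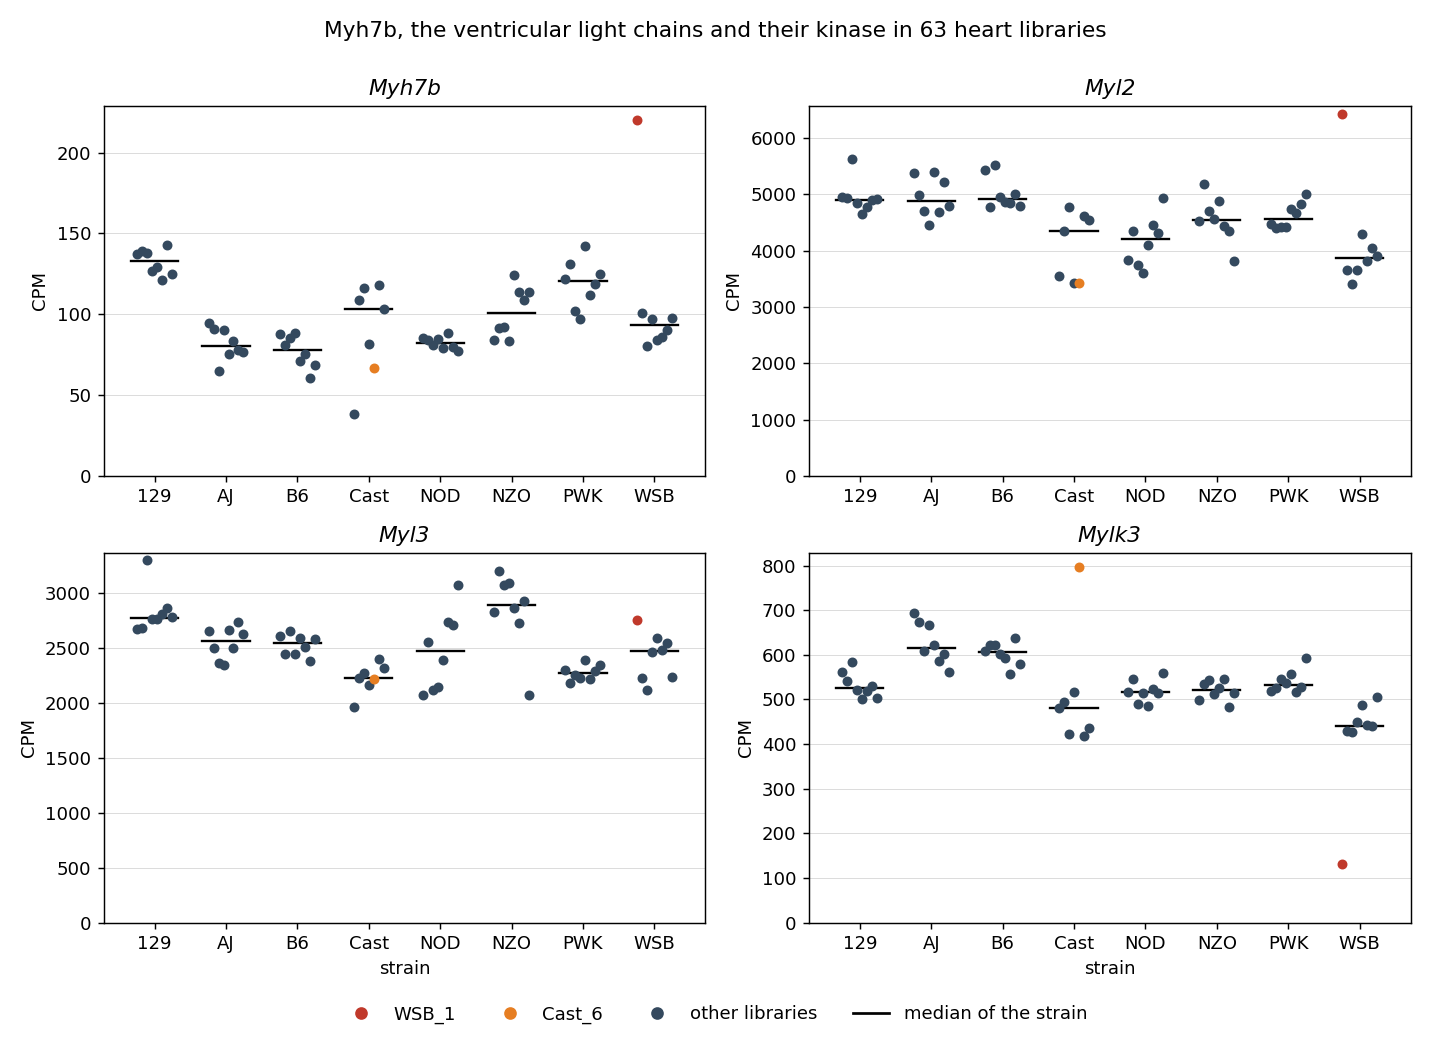
Level of Myh7b, Myl2, Myl3 and Mylk3 in CPM in each library by strain, on axes that start at 0, with a line at the strain median and WSB_1 and Cast_6 in colour. WSB_1 is highest of its strain in Myh7b at 220.0 and in Myl2 at 6427 CPM and lowest in Mylk3 at 132 CPM, and Cast_6 is highest of all libraries in Mylk3 at 796 CPM.

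Myl2 (ENSMUSG00000013936, chr5:122100951-122113472, plus strand), the ventricular regulatory light chain, had a narrow range of strain means, 4098 to 5027 CPM. B6 had a lowest, median and highest level of 4779, 4913 and 5526 CPM, AJ 4453, 4893 and 5396 CPM, and 129 4655, 4909 and 5632 CPM. Cast had 3419, 4348 and 4775 CPM, NOD 3599, 4203 and 4933 CPM, and WSB 3415, 3864 and 6427 CPM, or 3415, 3823 and 4296 CPM without WSB_1. In the pairwise tests with all libraries, each of B6, AJ and 129 exceeded each of Cast, NOD and WSB, by 0.25 to 0.29 log2 units (edgeR, adjusted p 0.00269 to 0.0192). PWK (4401 to 5006 CPM) and NZO (3823 to 5194 CPM) lay between and passed against none of the other 7 strains. Without WSB_1 these 9 calls held and 5 were added, with NZO and PWK each above Cast and WSB (0.15 to 0.27 log2 units) and PWK above NOD (0.15, adjusted p = 0.0348).

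Against the other 7 strains Myl2 was higher in B6 by 0.16 ± 0.06 log2 units (edgeR, adjusted p = 0.0336) and lower in Cast by -0.17 ± 0.07 (adjusted p = 0.0217) and in WSB by -0.15 ± 0.06 (adjusted p = 0.0444). The B6 call did not hold without B6_1, B6_3 or B6_7, and the WSB call did not hold without any 1 of 14 libraries. The WSB difference grew to -0.27 without WSB_1 (adjusted p = 1.39e-05), and 129, AJ and NOD then passed too, at 0.15, 0.16 and -0.13 log2 units. The Cast difference rested on the 3 libraries with the most Myh7: Cast_1, Cast_5 and Cast_6 held 3419 to 3549.7 CPM of Myl2, the call was lost without any 1 of them, and without all 3 the difference was -0.02 (adjusted p = 0.893).

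Myl3 (ENSMUSG00000059741, chr9:110741861-110769798, plus strand), the essential light chain of the ventricle and of slow muscle, was highest in NZO and 129. NZO had a lowest, median and highest level of 2068, 2891 and 3197 CPM and 129 had 2667, 2772 and 3298 CPM. Cast had 1965, 2227 and 2395 CPM and PWK 2178, 2265 and 2391 CPM. All libraries of 129 lay above all libraries of Cast and PWK, while NZO overlapped both through NZO_8 at 2068 CPM. The other 4 strains had medians of 2472 to 2562 CPM. Myl3 was higher in NZO by 0.21 ± 0.05 log2 units (edgeR, adjusted p = 0.000624) and in 129 by 0.20 ± 0.05 (adjusted p = 0.00141), and lower in Cast by -0.20 ± 0.06 (adjusted p = 0.00152) and in PWK by -0.16 ± 0.05 (adjusted p = 0.00665). The pair of strains with the most Myh7 was thus the pair with less Myl3. NZO and 129 differed by 0.01 log2 units (adjusted p = 0.947). Without Cast_1, Cast_5 and Cast_6 the Cast difference was -0.15 and did not pass (adjusted p = 0.0814).

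The 2 light chains sit on the same myosin neck in the ventricle, and their counts were also compared within each library. Myl3 made up 38.3 ± 1.74% of the counts of Myl2 and Myl3 in NZO, 37.3 ± 3.16% in WSB, 37.2 ± 1.21% in NOD and 36.3 ± 0.838% in 129 (SD, n = 8 each). It was 35.4 ± 2.67% in Cast (SD, n = 7), 34.0 ± 0.901% in AJ, 33.4 ± 1.09% in B6 and 33.0 ± 0.819% in PWK (SD, n = 8 each). Without WSB_1 the WSB share was 38.3 ± 1.26% (SD, n = 7). The strains differed in the log2 ratio (permutation F test, n = 63, p = 1e-05, again the smallest possible), though by only 0.34 log2 units between NZO and PWK (exact permutation test, adjusted p = 0.000725). In the exact permutation tests 14 of 28 pairs passed. AJ, B6 and PWK, at the low end, could not be told apart at this spread, nor could NZO, WSB and NOD at the high end. Without WSB_1, WSB also exceeded 129 by 0.12 and Cast by 0.18 log2 units (exact permutation tests, adjusted p = 0.00602 and 0.0443).

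Mylk3 (ENSMUSG00000031698, chr8:85324303-85386345, minus strand), the kinase of the regulatory light chain, was highest in AJ and B6 and lowest in WSB. AJ had a lowest, median and highest level of 562, 615 and 694 CPM and B6 had 557, 606 and 637 CPM. WSB had 132, 441 and 505 CPM, or 427, 442 and 505 CPM without WSB_1. Every library of AJ and B6 lay above every WSB library. In 129, NOD, NZO and PWK the medians were 516 to 533 CPM, and Cast had 418, 482 and 796 CPM, with Cast_6 highest. Mylk3 was lower in WSB by -0.41 ± 0.09 log2 units (edgeR, adjusted p = 0.000150), and by -0.27 without WSB_1 (adjusted p = 3.38e-05). It was higher in AJ by 0.28 ± 0.08 (adjusted p = 0.00618) and in B6 by 0.21 ± 0.08 (adjusted p = 0.0468). The B6 call did not hold when any 1 of 30 libraries was left out, though it passed without WSB_1 (0.19 log2 units, adjusted p = 0.00109). In Cast the difference was -0.06 with all libraries and passed without Cast_6, at -0.21 log2 units (adjusted p = 0.0477).

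In WSB both the light chain Myl2 and its kinase were lower, and in B6 both were higher, but in Cast Myl2 was lower and Mylk3 did not pass, so the pair showed no single pattern. The pairwise tests of Mylk3 passed for WSB against each of the other 7 strains, lower in WSB each time, and for AJ against Cast. Without WSB_1, 17 of 28 pairs passed.

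Between libraries of one strain, the 15 pairs of the 6 genes were compared as deviations of log2 CPM from the strain mean over 63 libraries, which share library depth and scaling. Myl2 and Myl3 went together with r = 0.71 and rho = 0.74 (permutation within strains, adjusted p over 15 pairs 0.000150 for both). The correlation was above 0 in all 8 strains, at 0.52 to 0.96 within them with WSB_1 left out, and stayed at 0.72 without the 2 libraries farthest from the median in Myl2. Strain means were not taken anew when the 2 farthest libraries were left out, but the WSB mean was when WSB_1 alone was. Myh6 and Mylk3 had r = 0.85 and rho = 0.62 (adjusted p 0.0234 and 0.000375). Here r was 0.30 without WSB_1 alone (permutation within strains, adjusted p = 0.0954), so the size of r and its call rested on that library. Without WSB_1 and WSB_9 r was 0.45, but the WSB mean still held both, so the values cannot be set side by side. The rank correlation moved less, to rho = 0.51 without WSB_1, and r was then above 0 in 7 of the 8 strains. Myh7b and Myl2 had r = 0.59 (adjusted p = 0.0203), which was 0.38 without WSB_1 (adjusted p = 0.0837). Myh7 and Mylk3 had r = 0.12 with all libraries, and r = -0.08 with Cast_6 and PWK_9 left out, WSB_1 kept and strain means not taken anew. Without WSB_1 alone r was 0.49 (permutation within strains, adjusted p = 0.0466), while rho was 0.09 with all libraries and 0.18 without WSB_1. Within single strains r was then above 0 in 5 and below 0 in 3, at -0.76 to 0.92. Leaving out WSB_1 together with Cast_6 and PWK_9 was not tested. The pair Myl2 and Myl3 was the one whose call by r held in each of these settings.

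**Figure D5:**
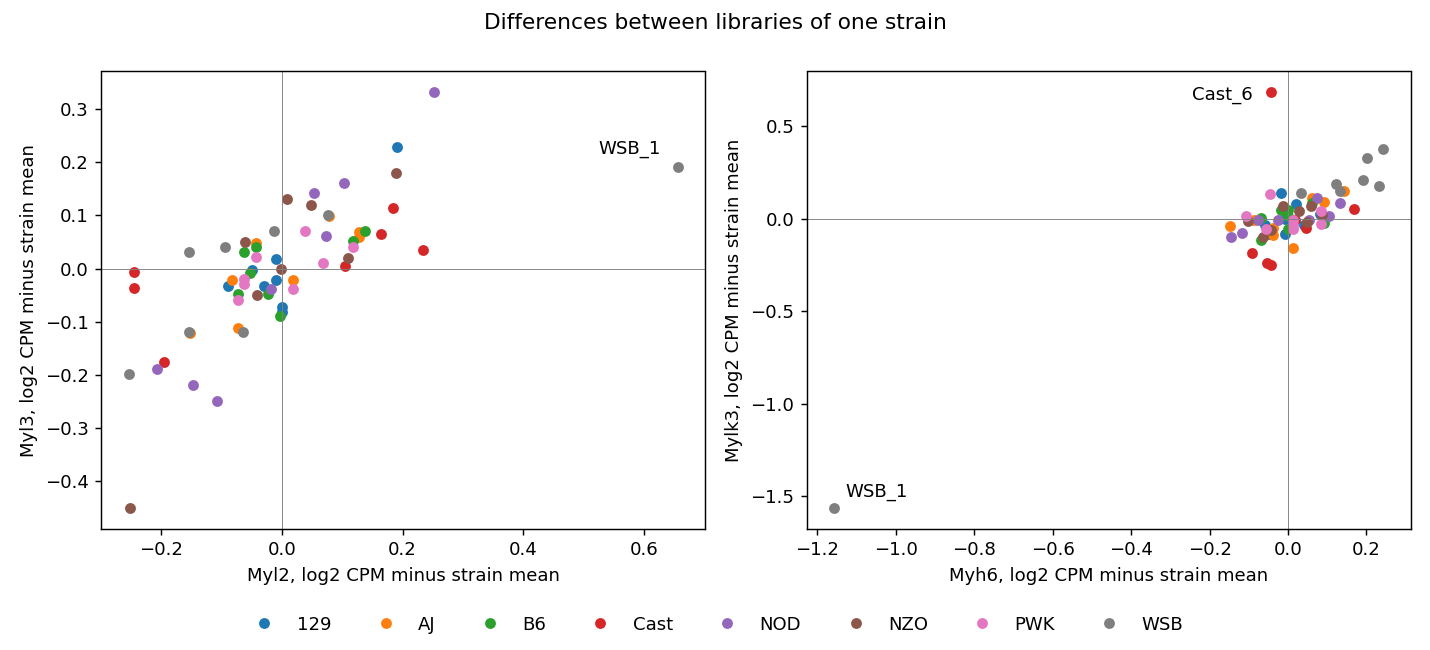
Deviation of log2 CPM from the strain mean in each of the 63 libraries, for Myl3 against Myl2 (left, r = 0.71) and Mylk3 against Myh6 (right, r = 0.85), with points coloured by strain. On the left the points of all strains rise together, and on the right WSB_1 at the lower left and Cast_6 at the top stand far from the rest.

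Genes with strain means most like those of the 6 were sought among 8314 genes whose log2 CPM averaged 3 or more. These correlations over 8 strain means describe the pattern and carry no test. The genes nearest to Myh7 were Cand1, Pigyl and Llph (r = 0.97 each), and with Cast and PWK left out r was 0.84, 0.97 and 0.92. Nearest to Myh6 were Ift140 (r = 0.98), Tmem164 and Syde2 (0.91 each), to Myh7b Oaz1 (0.92), Rps23 and Sae1 (0.90 each), and to Mylk3 Pacsin2, Thtpa (0.96 each) and Lmbrd2 (0.94). Nearest to Myl2 were Erap1 (0.97), Amer1 (0.95) and Smchd1 (0.91), and to Myl3 Mrvi1, Zfp516 (0.96 each) and Vwa9 (0.94).

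Between libraries of one strain other genes came nearest. For Myl2 they were Atp5o, Ndufs8 (r = 0.89 each) and Atp5g3 (0.88), and for Myl3 Uqcrc1 (0.84), Ndufs3 and Sdhb (0.83 each), all subunits of the mitochondrial respiratory chain or ATP synthase. Without WSB_1 the nearest to Myl2 were Atp5g1 (0.86), Atp5o and Ndufs8 (0.82 each), and to Myl3 Uqcrc1 (0.86), the muscle creatine kinase Ckm and Sdhb (0.84 each). For Myh7 they were Slc3a2 (0.70), Tspyl2 (0.61) and Smarcal1 (0.60), and without WSB_1 Smarcal1 (0.72), the M-band gene Myom2 (0.70) and Slc3a2 (0.69). For Myh6, Mylk3 and Myh7b the values of 0.79 to 0.94 with all libraries include WSB_1. Without it the nearest to Myh6 was the muscle glycogen phosphorylase Pygm at 0.62, to Mylk3 the glycolytic enzyme Gpi1 at 0.75 and to Myh7b Gimap4 at 0.75.

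Of 11 other myosin heavy chain genes, 8 were in the table and 5 were tested, and all 5 passed among the strains, beside 90.3% of all genes. In Cast 2 of the 5 were higher and 1 lower, beside 30.9% and 29.3% of all genes, with a median log2 fold change of -0.00, and 0.00 for all genes. The nonmuscle heavy chain Myh14 was higher in Cast at 152 CPM by 0.51 log2 units and lower in PWK at 81.6 CPM by -0.52. The smooth muscle heavy chain Myh11 was higher in WSB at 78.4 CPM by 0.28 log2 units (0.18 without WSB_1, adjusted p = 0.0233) and lower in NZO at 52.1 CPM by -0.39. Myh10, another nonmuscle chain, was higher in PWK at 69.3 CPM by 0.28 log2 units and lower in Cast at 49.5 CPM by -0.28. Myh8, the perinatal skeletal heavy chain, named here after its values were seen, had the widest range of the list at very low levels. It was higher in PWK at 1.02 CPM by 2.66 log2 units and lower in WSB at 0.0910 CPM by -1.22 (-1.20 without WSB_1), as Myh7 was, but did not pass in Cast (0.171 CPM, -0.28).

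Of the other light chains, all 9 tested passed among the strains, 4 of them with strain means spanning 1 log2 unit or more, beside 90.3% and 38.4% of all genes. In Cast 5 were lower and 1 higher, beside 29.3% and 30.9% of all genes (median -0.31 log2 units, and 0.00 for all genes). Myl1, the essential light chain of fast skeletal and embryonic muscle, had the widest range of these: it averaged 94.6 CPM in AJ and 86.2 CPM in NOD, against 3.51 CPM in Cast, where it was lower by -3.55 log2 units. Myl1 was thus lowest in the strain where Myh7 was highest. Myl9, a light chain of smooth muscle, was higher in PWK at 65.2 CPM by 0.53 log2 units and lower in B6 at 32.7 CPM by -0.60. The atrial light chains Myl4 and Myl7 were both higher in 129, by 0.50 and 0.51 log2 units, and in NOD, by 0.38 and 0.36, while Myl4 was lower in WSB by -0.57 (-0.67 without WSB_1) and Myl7 lower in Cast by -0.47.

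Of 13 tested kinases and phosphatase subunits that act on the light chains, 11 passed among the strains, beside 90.3% of all genes. Mylk4, a kinase related to Mylk3, was higher in WSB at 292 CPM by 0.77 log2 units (0.93 without WSB_1), the strain in which Mylk3 was lowest, and lower in 129 and NOD at 124 CPM each, by -0.63 and -0.64. Camk2d, the main calcium/calmodulin kinase of the heart, was higher in AJ at 147 CPM by 0.53 log2 units and lower in Cast at 84.3 CPM by -0.38, and Camk2a was lower in Cast at 27.0 CPM by -0.62.

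Of 20 tested genes of thick filament assembly and its partners, 19 passed among the strains and in 8 the strain means spanned 1 log2 unit or more, beside 90.3% and 38.4% of all genes. Myom3, an M-band protein, averaged 27.9 CPM in NZO, higher by 3.96 log2 units, against 1.20 to 2.95 CPM in the other strains (1.08 CPM in WSB without WSB_1). Mybpc2, a myosin-binding protein, was higher in NOD at 40.2 CPM by 0.86 log2 units and lower in WSB at 9.52 CPM by -1.52 (-1.43 without WSB_1). The chaperone Hsp90aa1, which helps to fold myosin, was higher in WSB at 623 CPM by 1.16 log2 units (1.14 without WSB_1) and lower in B6 at 201 CPM by -0.70.

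Of 39 tested genes of thyroid hormone action and of factors known to regulate Myh6 and Myh7, 34 passed among the strains and in 4 the strain means spanned 1 log2 unit or more, beside 90.3% and 38.4% of all genes. In Cast 14 were higher and 13 lower, beside 30.9% and 29.3% of all genes (median -0.06 log2 units, and 0.00 for all genes), and in PWK 8 were higher and 8 lower, beside 27.4% and 26.8% of all genes (median -0.00, and -0.01 for all genes). Nfatc2, a calcineurin-driven transcription factor, was higher in PWK at 28.3 CPM by 0.99 log2 units and lower in WSB at 7.39 CPM by -1.23 (-1.17 without WSB_1). Dio2, the deiodinase that makes active thyroid hormone, was higher in B6 at 3.84 CPM by 0.58 log2 units and lower in Cast at 1.82 CPM by -0.64. The receptors, named here after their values were seen, moved apart in Cast: Thrb was higher at 46.1 CPM by 0.64 log2 units and Thra lower at 56.9 CPM by -0.33. In PWK both were higher, Thra by 0.33 and Thrb by 0.18.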

How the data were processed

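Per the labels' protocols, polyadenylated RNA was sequenced from frozen, pulverised hearts with ERCC spike-ins added. Per gene, the authors deposited expected counts, that is estimated counts without normalisation, on GRCm38, per the submitters' processing notes and the values, of which 18.4% are not whole. The authors also deposited variance-stabilised log2 values, credited to DESeq2 in those notes and used here only as an alternative. Which aligner, counter and strand setting were used is not given in the sources used here.

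Counts were rounded and genes with low counts left out (filterByExpr, minimum count 10), which kept 16425 genes. One edgeR quasi-likelihood fit (edgeR 4.0.16, limma 3.58.1, R 4.3.3, robust, TMM scaling) with a coefficient per strain gave all gene tests, adjusted over all genes per contrast at 0.05. Log2 CPM used a prior count of 2, and ratios an added count of 0.5. Gene lengths and transcripts are from GENCODE M21. The procedure was tested on simulated data. DESeq2 (1.42.0) was an alternative. Leaving WSB_1 out of the correlations, likeness, listed genes, levels, pair counts and ratio pairs was chosen after seeing the data.

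Members and gene lists were chosen with earlier results of these data known. Named besides the members were, per member, the 3 genes most alike across strain means and within strains, per list the 3 with the widest strain range whose log2 CPM averaged 1 or more, and Mhrt. Symbols of the forms Gm or Rik, mitochondrial, Xist and Y-linked genes were not named. Total counts of 21.8 M to 42.9 M leave counting error small beside the spread between libraries for the 6 genes. That does not extend to genes at very low levels, such as Myh8 and Tnni1, with at most 56 and 55 counts in a library.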

Additional observations from a re-analysis of the deposited data

Results flagged for a closer look

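Of 64 sets of libraries examined (the 6 genes and the ratios of Myh7 to Myh6 and of Myl3 to Myl2, in 8 strains), 9 had a library far from the rest of its strain by Dixon's criterion at 95%, where chance gives about 1 in 20. They fell on 4 libraries, and 5 of them on WSB_1.

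WSB_1 was lowest of its strain in Myh6 at 13806 CPM (next 31417) and in Mylk3 at 132 CPM (next 427). It was highest in Myh7b at 220.0 CPM (next 101) and in Myl2 at 6427 CPM (next 4296), and lowest in the log2 ratio of Myl3 to Myl2 at -1.22 (next -0.81). Its Mhrt level of 93.4 CPM and its endothelial marker sum of 1202 CPM were also the highest of its strain. Cast_6 was highest in Mylk3 at 796 CPM (next 516). The library 129_3 was highest of its strain in both light chains, Myl2 at 5632 CPM (next 4949) and Myl3 at 3298 CPM (next 2858). NZO_8 was lowest in Myl3 at 2068 CPM (next 2722), and had the highest macrophage marker sum of all libraries at 324 CPM, beside 87.7 to 155 CPM in the rest of the 63. No cause of these values was tested.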

How the results depend on the processing

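The 6 of 6 genes that differed among strains did so under every alternative run: DESeq2 size factors, upper-quartile scaling, leaving out mitochondrial genes, other filters on low counts, DESeq2 tests, limma on the deposited values, a replicate block, a term for low or high library number, and leaving out libraries. The 24 calls against the other 7 strains were 21 to 25 under the alternatives that keep all libraries, and 21 to 31 when 1 library was left out. The 68 calls between pairs were 65 to 72, and 65 to 98 when 1 library was left out. With 1 library left out, the ratio of Myh7 to Myh6 passed in 19 to 23 pairs, that of Myl3 to Myl2 in 13 to 17, and the p among strains stayed at 1e-05 to 1e-04, the smallest that the resamples can give. Of the 15 correlations within strains 3 passed, and 2 did without WSB_1 (an alternative chosen after seeing the data). Without the 2 libraries farthest from the median, and with strain means not taken anew, 1 did. Replicate numbers showed at most a weak pairing of libraries across strains. Same-numbered libraries of different strains had correlations of -0.16 to 0.38, with a median of 0.05, and 40 of 199 were above 0.1. Different-numbered ones had -0.29 to 0.35, with a median of -0.01, and 168 of 1537 were above 0.1. Of the 63 libraries 15 went best with their own number. What the numbers stand for was not tested. With the replicate block, 21 calls against the other 7 strains and 65 between pairs remained, all among the main ones. The calls of Myh7b in NOD, Mylk3 in B6, Myh6 in NZO and Myl2 in WSB lay near the threshold and were lost under several alternatives. No result that had passed reversed its direction. Depth limits none of these genes, since the lowest count was 245 (Mhrt) and 1005 among the 6.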
